A study of Mus musculus with 18 samples.

Results

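Bulk liver was compared with isolated epithelium of the bowel in mice that had received bone marrow and no T cells, across every gene that the counts allowed to be tested. The members are 6 of the 18 libraries of the series, 3 of liver and 3 of epithelium whose library names carry the code SI, and they were chosen by tissue and treatment alone. All 6 came from female BALB/cJ mice, aged 6 to 8 weeks, that were irradiated at a lethal dose, were given 10000000 marrow cells (the group called BM) and were sampled on day 7. Irradiation and the marrow graft are therefore shared by both tissues, and no unirradiated mouse is among the libraries used here. A second arm of the series, BMT, differs by 1000000 T cells added to the graft, and it is used below only to repeat the tissue contrast. The labels do not state that replicates are separate animals, and the p-values here cover library-to-library spread that may be technical.

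Liver and small bowel epithelium share an endodermal origin and a common task, the circulation of bile acids. Hepatocytes make bile acids from cholesterol, conjugate them and pump them into bile; enterocytes of the ileum, the last segment of the small bowel, take them back up and release them to the portal blood, from which hepatocytes extract them again. A hormone secreted by the ileum, Fgf15 in mice, reports the returning load to the liver. Around this loop the liver is known for plasma protein secretion, nitrogen disposal, glucose export and drug metabolism, and the epithelium for digestion at its brush border, nutrient absorption, defence and continuous renewal.

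The code SI libraries are titled large intestine, so the code and the title name different regions. Against the other set of epithelial libraries, code LI, 10 of 10 markers of ileum had higher TPM (transcript abundance scaled for gene length and depth) in all 3 code SI libraries, and 9 of 10 markers of colon had lower ones, while the mucin Muc2 overlapped. Within code SI the markers of ileum summed to 69557.8 to 91502.5 TPM and those of colon to 507 to 1553 TPM. The colon markers were thus present there and uneven between libraries. Hoxb13, a factor of the distal colon, had 0 counts in the code SI libraries. They are called code SI epithelium below, with no name of a bowel segment.

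The liver libraries held 21455913 to 22099056 counts and the code SI libraries 19556124 to 22105283. On these totals 3 counts correspond to about 0.14 CPM (counts scaled to a common library total). CPM here are scaled with the trimmed mean of M-values (TMM), which sets the typical gene equal in both tissues, since a single gene, Alb, took 8.47 to 14.5% of the counts of a liver library. On that scale 3 counts were 0.179 CPM in liver BM replicate 2 (Reg3b) and 0.105 CPM in code SI BM replicate 2 (Cyp8b1). The floor therefore differs between the tissues. The hepatocyte markers summed to 154618 to 223850 TPM in liver, against 432 to 512 TPM in code SI epithelium, of which Cps1, an enzyme that enterocytes also make, averaged 439.9 TPM. Bulk liver also holds other cells. Markers of Kupffer cells, the liver macrophages, summed to 451 to 1006.6 TPM in liver and 1.62 to 3.64 TPM in code SI epithelium, and those of endothelial cells to 139 to 185 TPM and 4.79 to 6.81 TPM. Genes of those cells are part of the liver values below, and fewer cells of a type cannot be told apart from less RNA per cell. Only the bowel samples were isolated epithelium, so an effect of isolation cannot be told apart from a difference between the tissues.

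Most genes differed between the tissues. Of 15321 genes tested, 5358 were higher in liver (35%) and 5461 were lower (35.6%) at an adjusted p below 0.05, by the quasi-likelihood F-test of edgeR, adjusted by Benjamini-Hochberg over all genes, which is the test behind every adjusted p given here. A difference of at least 4-fold was found in 2583 genes that were higher (16.9%) and in 2406 that were lower (15.7%). With scaling by total counts alone, 3395 genes were called higher and 8348 lower, and the median log2 fold change over all genes was -0.71 in place of -0.03, so that the even split rests on the scaling. Some genes were present in one tissue and at the floor in the other: 296 genes had a mean of at least 5 CPM in liver with no more than 3 counts over the code SI libraries, and 273 had at least 5 CPM in code SI epithelium with no more than 3 counts over the liver libraries. Another 8280 genes had at least 5 CPM in both.

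**Figure D1:**
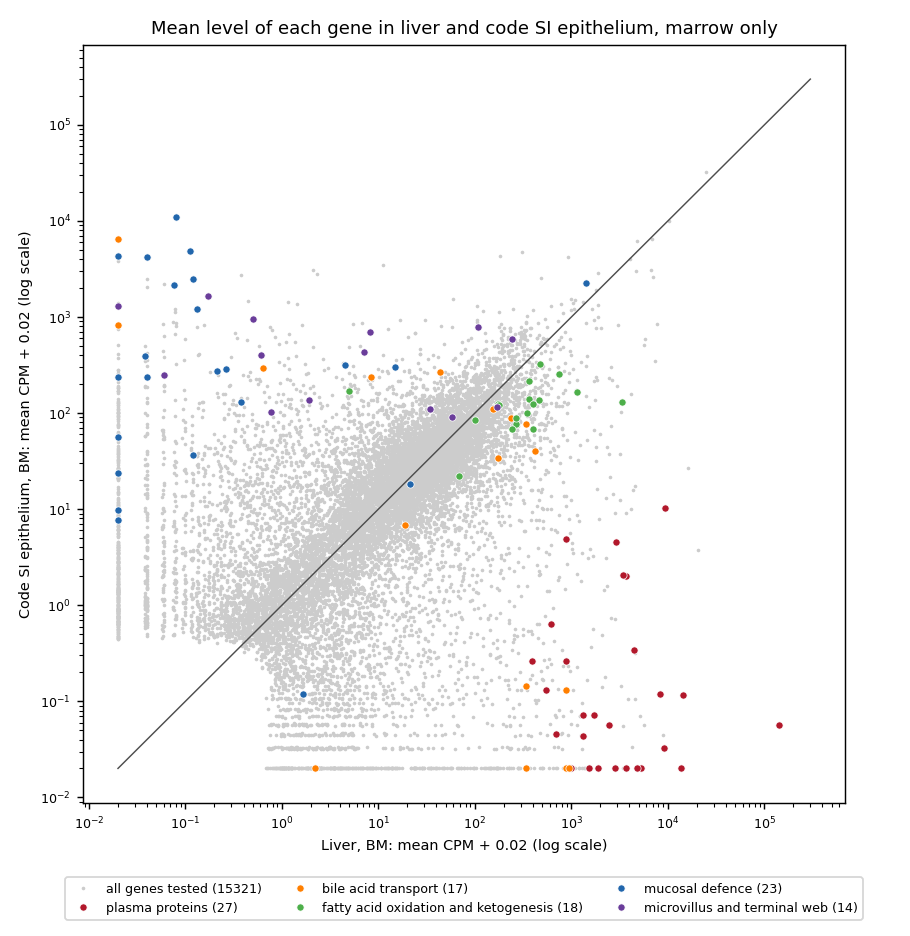
Mean CPM of each of the 15321 genes tested, with liver on the x axis and code SI epithelium on the y axis (both as CPM + 0.02 on log scales, mean of 3 libraries each); the line marks equal levels and 5 gene lists are coloured. Plasma proteins lie at the lower right edge and most mucosal defence genes at the upper left edge, while genes of fatty acid oxidation lie a short way below the line.

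Among the largest fitted differences were those of secreted hepatocyte proteins in one direction and of bile acid carriage and antimicrobial defence in the other. Albumin (Alb) had 193452, 136474 and 99768 CPM in the liver libraries, against 0.0745, 0.0349 and 0 CPM in code SI epithelium, a total of 3 counts in the epithelium. The other genes that the naming rule took by fitted fold change were Ahsg, the carrier fetuin-A, the protease inhibitors Serpina3k, Pzp and Itih4, the drug-metabolising P450 Cyp2a5, the kininogen Kng1 and vitronectin (Vtn). The order of fitted values among genes at 0 counts depends on the prior count and is not a rank. All of these 7 had means of 2842 to 13595 CPM in liver and 0 counts in code SI epithelium. At the other end, Fabp6, the cytosolic bile acid binding protein of the ileum, had 0 CPM in each liver library, against 8195, 5606 and 5744 CPM in code SI epithelium, which makes it at least 111824-fold lower in liver when liver is set at the floor of 3 counts over the group. The phospholipase Pla2g2a, the Paneth cell defensins Defa24 and Defa35, the brush border motor Myo1a, and Slc51a, a subunit of the basolateral bile acid exporter, were also at 0 counts in liver, and the lectins Reg3b and Reg3g had 3 and 1 counts there. The defensin genes have near-identical copies, so the counts of single members are uncertain.

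Bile acid synthesis lay in the liver libraries. Of 17 tested genes of the list, 16 were higher in liver, 15 of them at least 4-fold, against backgrounds of 35 and 16.9% of all genes, and the median log2 fold change was 4.78, against -0.03 over all genes. Cyp7a1, the rate-limiting enzyme of the classical pathway, had 17.3, 266 and 238 CPM in liver and 0 counts in code SI epithelium (adjusted p = 0.000468, at least 4746-fold higher in liver). The first liver library stood more than 10-fold below the other two for Cyp7a1, yet above every epithelial library. Cyp8b1, which directs synthesis towards cholic acid, had 49.5, 100.2 and 52.6 CPM in liver, against 0, 0.105 and 0 CPM in code SI epithelium, and its 3 liver libraries lay within about 2-fold of each other. Akr1d1, the reductase that shapes the steroid ring, averaged 298 ± 106 CPM in liver and 0.111 ± 0.0332 CPM in code SI epithelium (SD, n = 3 each). The aldo-keto reductase Akr1c6 had 1177, 1024 and 736 CPM in liver and 0 counts in the epithelium.

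Several enzymes of the pathway were not confined to liver. The aldo-keto reductase Akr1c14 averaged 594 ± 116 CPM in liver and 51.3 ± 2.51 CPM in code SI epithelium, a log2 fold change of 3.53 ± 0.20 (SE). Cyp27a1, the mitochondrial sterol hydroxylase of the alternative pathway, averaged 337 ± 88.1 and 22 ± 4.29 CPM in the same order, and Cyp39a1, an oxysterol hydroxylase, 98.9 ± 36.6 and 6.73 ± 1.45 CPM. Cyp7b1, the other oxysterol hydroxylase of that pathway, had 27.8, 50.5 and 27.2 CPM in liver and 0 counts in code SI epithelium. The peroxisomal enzymes that shorten the side chain, which also serve branched fatty acids, were present in both tissues: Slc27a2, Amacr, Acox2, Hsd17b4 and Scp2 were higher in liver by log2 fold changes of 1.89 (Hsd17b4) to 4.78 (Slc27a2), and their means in code SI epithelium were 12.4 to 221 CPM. Acot8, a peroxisomal thioesterase, was the 1 gene of the list that was lower in liver, at 15.7, 15.4 and 12.5 CPM, against 25.4, 19.8 and 27.2 CPM in code SI epithelium (log2 fold change -0.73 ± 0.18, adjusted p = 0.00543). Of the conjugating pair, Slc27a5, the bile acyl-CoA synthetase, averaged 1285 ± 382 CPM in liver and 0.076 ± 0.0418 CPM in the epithelium, and Baat, the amino acid transferase, 331 ± 49.4 CPM and 5.86 ± 0.772 CPM. Cyp2c70, which makes the muricholic acids of mice, had 1577, 1466 and 1123 CPM in liver and 0 counts in the epithelium. Ch25h was too low to be tested. Hsd3b7 was listed at 0 counts in all 6 libraries. The annotation places its whole span inside another gene model, Gm49388, so no level can be read for it.

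Transport split by step. All 5 hepatocyte uptake carriers were higher in liver. Slc10a1, the sodium-dependent carrier of conjugated bile acids, had 868, 1103 and 643 CPM in liver, against 0.112, 0.14 and 0.079 CPM in code SI epithelium (log2 fold change 12.86 ± 0.39, adjusted p = 4.77e-08). The organic anion carriers Slco1b2, at 890.2 ± 318 CPM, and Slco1a4, at 337 ± 94 CPM in liver, had 0 counts in the epithelium; Slco1a1 had 0 counts there too and only 2.17 ± 1.2 CPM in liver. Slco2b1 was the exception, with 174 ± 25.4 CPM in liver and 34.4 ± 5.82 CPM in the epithelium.

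At the canalicular face, Abcb11, the bile salt export pump, had 1363, 973 and 514 CPM in liver and 0 counts in code SI epithelium, at least 25227-fold higher in liver. Abcb4, which moves phosphatidylcholine into bile, averaged 335 ± 136 CPM in liver and 0.124 ± 0.0863 CPM in the epithelium. The remaining canalicular genes were expressed on both sides. Abcc2, which exports conjugated anions, averaged 422 ± 72.4 CPM in liver and 40.2 ± 9.61 CPM in code SI epithelium. The sterol half-transporters Abcg5 and Abcg8, which work as a dimer in both hepatocytes and enterocytes, gave different calls: Abcg8 was higher in liver by 1.40 ± 0.20 on the log2 scale, and Abcg5 had 167, 186 and 111 CPM in liver, against 121, 109 and 103 CPM in code SI epithelium, and did not pass (log2 fold change 0.48 ± 0.20, adjusted p = 0.0587). Abcg5 lay at the threshold: it was called higher in liver with RLE scaling (0.51, adjusted p = 0.0471) and without liver BM replicate 3 (0.64, adjusted p = 0.00186), and with total-count scaling its value was -0.22, without a call. The flippase Atp8b1 was lower in liver, at 43.2 ± 15.6 CPM, against 265 ± 32.8 CPM in code SI epithelium (log2 fold change -2.62 ± 0.27).

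The recovery steps were epithelial. Slc10a2, the apical sodium-dependent uptake carrier, had 1.02, 0.299 and 0.549 CPM in liver, against 274, 354 and 258 CPM in code SI epithelium (log2 fold change -8.88 ± 0.37, adjusted p = 1.59e-07). Slc10a1 and Slc10a2 are paralogs, and they were higher in opposite tissues. Slc51a and Slc51b form the exporter of the basolateral face: Slc51a had 0 counts in liver, against 883, 804 and 793 CPM in code SI epithelium, while Slc51b was detected in each liver library at 7.17, 5.8 and 11.9 CPM, against 297, 219 and 205 CPM (log2 fold change -4.86 ± 0.31). The multidrug resistance proteins Abcc3 and Abcc4, which export bile acids from the basolateral side of either cell type, were higher in liver, with means of 339 ± 52.1 CPM and 19 ± 3.66 CPM in liver and 77.2 ± 11.9 CPM and 6.81 ± 2.04 CPM in the epithelium. Over the list, 11 of 17 genes were higher and 5 lower (Atp8b1, Slc10a2, Fabp6, Slc51a and Slc51b). The share higher was above the background of 35%, and the share lower was below that of 35.6%.

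The bile acid receptor itself was expressed in both tissues at levels that did not separate. Nr1h4 (FXR) had 112, 170.2 and 117 CPM in liver, against 151, 184 and 124 CPM in code SI epithelium, and the ranges overlapped (log2 fold change -0.20 ± 0.22, adjusted p = 0.421). With total-count scaling Nr1h4 was called lower in liver, at -0.90 (adjusted p = 0.00448). Vdr, the vitamin D receptor, which also binds lithocholic acid, was at 0.0603, 0.12 and 0.659 CPM in liver, against 369, 416 and 369 CPM in code SI epithelium (log2 fold change -10.35 ± 0.51, adjusted p = 3.57e-07). The xenobiotic receptors went the other way: Nr1i3 (CAR) averaged 71.2 ± 9.83 CPM in liver and 1.61 ± 0.191 CPM in the epithelium, and Nr1i2 (PXR) 153 ± 20.3 CPM and 90.8 ± 7.73 CPM (log2 fold change 0.75 ± 0.15), a call that ended with total-count scaling, at 0.06. Rxra, the common partner of these receptors, was higher in liver by 1.77 ± 0.17 on the log2 scale. The membrane receptor Gpbar1 averaged 0.0201 CPM in liver and 0.222 CPM in the epithelium, too low to be tested.

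The repressor Nr0b2 (SHP), a target of Nr1h4, had 66.1, 28.5 and 62.7 CPM in liver, against 5.14, 2.2 and 6.91 CPM in code SI epithelium (log2 fold change 3.47 ± 0.46), while Nr1h4 was not called. Nr5a2, which drives bile acid synthesis genes and which Nr0b2 represses, was higher in liver by only 0.51 ± 0.19 (adjusted p = 0.042), and that call ended and turned to -0.19 with total-count scaling. It also ended without code SI BM replicate 1 (0.31) or 3 (0.59) and without liver BM replicate 1 (0.45) or 2 (0.42). The hormone arm was divided. Fgf15 had 0 counts in liver, against 25, 52.7 and 86.8 CPM in code SI epithelium, which spans more than 3-fold between libraries, and Malrd1, which acts on Fgf15 output in mouse enterocytes, had 0.362, 0.299 and 0.274 CPM in liver, against 89.7, 148 and 124 CPM. The Fgf15 co-receptor Klb had 71, 60.4 and 38.5 CPM in liver, against 1.01, 0.698 and 0.592 CPM in code SI epithelium (log2 fold change 6.20 ± 0.32, adjusted p = 4.66e-07). The kinase receptor Fgfr4 was present in both, at 29.3, 37.1 and 28.8 CPM in liver, against 20.5, 21 and 16.4 CPM (log2 fold change 0.72 ± 0.17, adjusted p = 0.00434), and its call ended with total-count scaling, at 0.02. With total-count scaling the calls of this list were 4 higher and 4 lower, in place of 7 and 3 of 11. With TMM scaling the share lower was below the background of 35.6%.

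**Figure D2:**
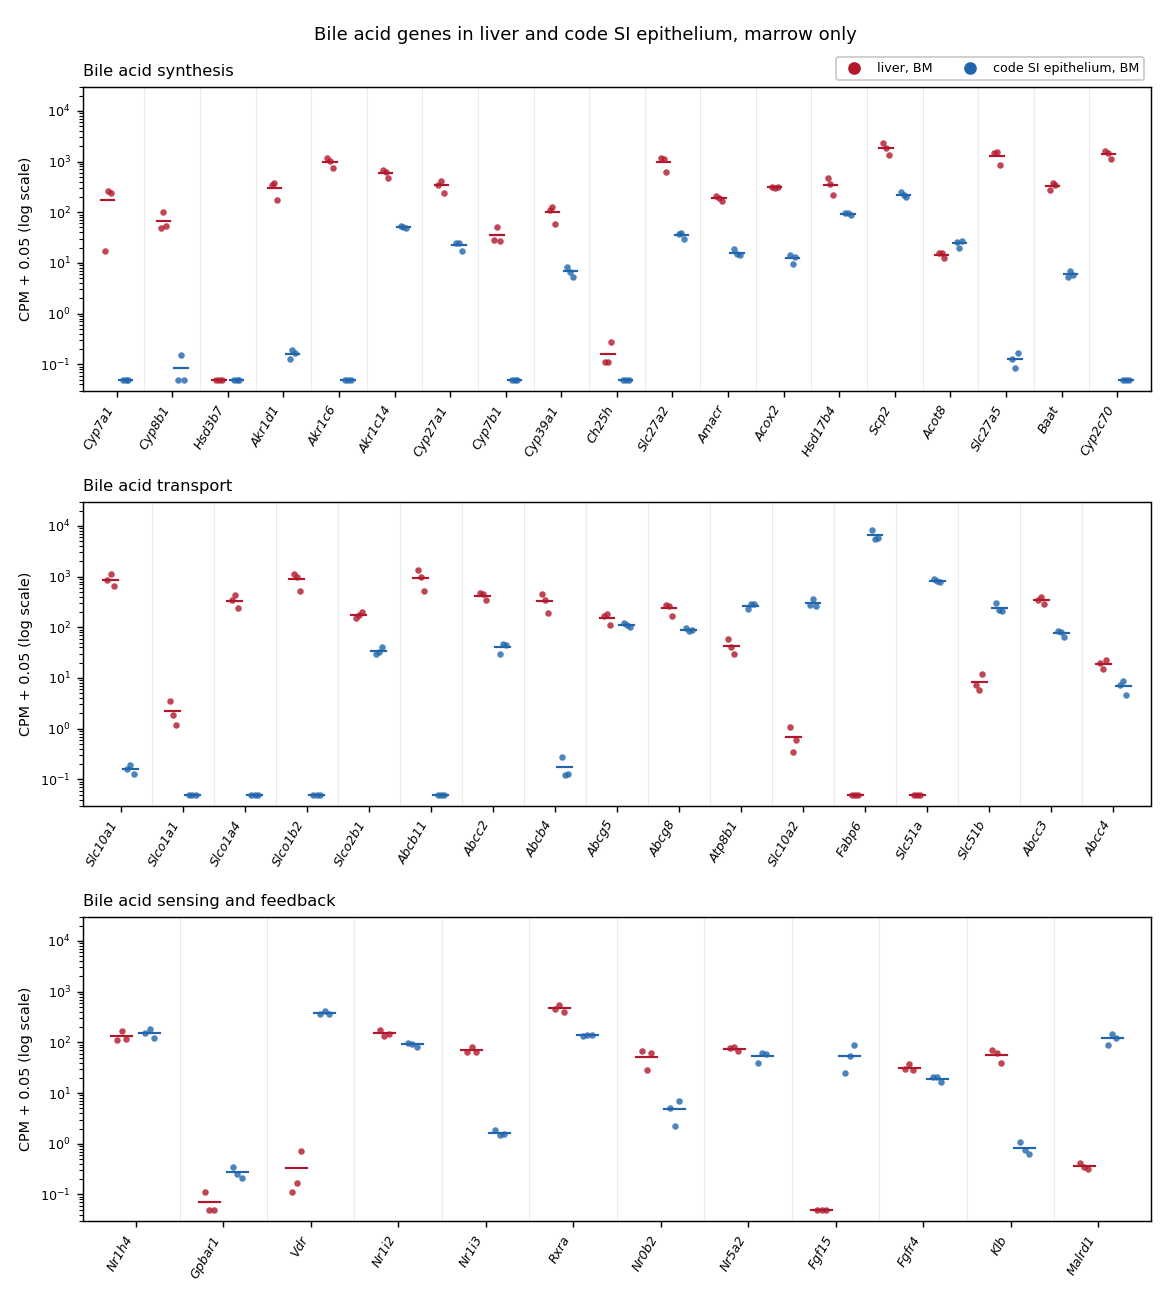
CPM + 0.05 on a log scale for each gene of the 3 bile acid lists in each BM library, with liver (red) left of code SI epithelium (blue) and a bar at the mean of 3 libraries; points at the bottom edge value of 0.05 are 0 counts. Of the tested synthesis genes all but Acot8 are higher in liver. Fabp6 and Slc51a are at 0 in liver, and the Nr1h4 points of both tissues overlap.

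Genes of secreted plasma proteins were almost wholly on the liver side. All 27 tested genes of the plasma protein list, all 22 of the coagulation list and 21 of 22 complement genes were higher in liver, and none was lower. Over all genes 35% were higher and 35.6% lower. The median log2 fold changes were 15.40, 14.56 and 9.10 as fitted, and 14.91, 12.86 and 9.10 with genes at 0 counts set to the floor. Fibrinogen chains Fgb and Fgg averaged 5208 ± 1621 CPM and 3422 ± 1256 CPM in liver and 0.0496 ± 0.0217 CPM and 0.0349 ± 0.0604 CPM in code SI epithelium. The complement components C8a, C8b and Mbl1 had 0 counts in the epithelium, and the lectin Mbl2 had 1 count. Not every plasma protein gene was silent there. C3 averaged 16371 ± 899 CPM in liver and 27.1 ± 2.22 CPM in code SI epithelium, Cfb, the factor B of the alternative pathway, 37.3 ± 3.4 CPM and 11.8 ± 1.12 CPM, and Ttr, a thyroxine carrier, 9308 ± 1426 CPM and 10.2 ± 4.39 CPM. The complement inhibitor Cd55, which sits on cell surfaces and is not secreted, did not pass (log2 fold change -0.43 ± 0.18, adjusted p = 0.0634), and it was called lower with total-count scaling (-1.11), without code SI BM replicate 2 (-0.58) and without liver BM replicate 3 (-0.49).

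Nitrogen handling was split by enzyme. The 8 genes of the urea cycle were higher in liver, by widely different amounts. Cps1 and Otc, the mitochondrial entry that makes citrulline, averaged 7732 ± 1328 CPM and 615 ± 161 CPM in liver and 848 ± 29.6 CPM and 128 ± 5.63 CPM in code SI epithelium. Ass1 and Asl, which turn citrulline into arginine, were higher in liver by 8.73 ± 0.32 and 4.14 ± 0.31 on the log2 scale. Arg1, which releases urea, had 1972, 3256 and 2562 CPM in liver, against 1.27, 0.384 and 0.474 CPM in code SI epithelium, and its mitochondrial paralog Arg2 showed the reverse, with 0.783, 0.359 and 0.384 CPM and 59.9, 74.2 and 78.2 CPM (log2 fold changes 11.83 ± 0.56 and -7.11 ± 0.28).

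Of 5 genes of arginine, ornithine and proline metabolism 4 were lower in liver and 1 was higher. Of 4 genes of glutamine metabolism 3 were higher in liver and 1 was lower. Aldh18a1, which makes the pyrroline carboxylate precursor of ornithine and proline, had 1.14, 0.956 and 1.76 CPM in liver, against 181, 209 and 205 CPM in code SI epithelium (log2 fold change -7.26 ± 0.25, adjusted p = 5.92e-08). Oat, the ornithine aminotransferase, averaged 343 ± 145 CPM in liver and 897 ± 72.8 CPM in the epithelium, and Odc1, the first enzyme of polyamine synthesis, 65.2 ± 17.4 CPM and 162 ± 14.9 CPM. Gls2, the liver type of glutaminase, averaged 546 ± 85 CPM in liver and 2.54 ± 0.435 CPM in the epithelium. Over the list 12 of 17 genes were higher in liver and 5 lower, among them Arg2, Oat, Aldh18a1 and Odc1. The share higher was above the background of 35%, and the share lower was below that of 35.6%.

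Catabolism of the carbon skeletons of amino acids was hepatic, with 29 of 34 genes higher in liver, each at least 4-fold, and 3 lower (Ido1, Mat2a and Dao). Over all genes 16.9% were at least 4-fold higher and 35.6% were lower. Ftcd, of histidine breakdown, averaged 587 ± 37 CPM in liver and had 0 counts in code SI epithelium, and Hgd, of tyrosine breakdown, averaged 986 ± 80.8 CPM and 0.0597 ± 0.0539 CPM. Tryptophan dioxygenases were exchanged: Tdo2 averaged 1449.9 ± 545 CPM in liver and 0.148 ± 0.0348 CPM in code SI epithelium, and Ido1, the interferon-inducible enzyme, had 0 counts in liver, against 9.09, 20.5 and 19.2 CPM in code SI epithelium. The methionine adenosyltransferases were exchanged as well, with Mat1a at 3345, 5452 and 3857 CPM in liver, against 0, 0 and 0.0395 CPM in code SI epithelium, and Mat2a at 20, 16.1 and 19.8 CPM, against 48.3, 62.6 and 54.4 CPM (log2 fold change -1.56 ± 0.16). The aromatic amino acid decarboxylase Ddc was shared, at 53 ± 20.3 CPM in liver and 47.8 ± 4.73 CPM in the epithelium, and did not pass (adjusted p = 0.609); with total-count scaling it was called lower, at -0.56.

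Glucose production and storage were higher in liver, while the ubiquitous hexokinase and pyruvate kinase forms were epithelial. Pck1, Fbp1 and Pcx, which drive gluconeogenesis, averaged 2584 ± 857, 1163 ± 182 and 749 ± 54.4 CPM in liver and 73.7 ± 9.88, 32.8 ± 3.37 and 23.7 ± 2.87 CPM in code SI epithelium, so that none of them was absent from the epithelium. G6pc, the last step before glucose export, averaged 115 ± 16.7 CPM and 1.83 ± 0.956 CPM. Pck2, the mitochondrial form, was lower in liver (-3.50 ± 0.17 on the log2 scale). The glycogen synthase Gys2 averaged 291 ± 60.3 CPM in liver and had 0 counts in the epithelium, where Gys1, the muscle form, averaged 17.4 ± 0.906 CPM, against 4.79 ± 1.73 CPM in liver. Glycogen phosphorylases split the same way, Pygl with 541, 486 and 482 CPM in liver, against 0.559, 0.384 and 0.197 CPM in code SI epithelium, and Pygb with 9.1, 6.69 and 9.66 CPM, against 69.4, 66 and 64.7 CPM. Hexokinase 2 (Hk2) had a log2 fold change of -4.53 ± 0.57. Pkm was lower in liver (-3.23 ± 0.48), and Pklr, the liver and erythrocyte form, was higher by only 0.52 ± 0.20, a call that ended with total-count scaling, where its value was -0.16, and without any 1 library other than liver BM replicate 2, at 0.29 without liver BM replicate 3 to 0.58 without code SI BM replicate 3. Lactate dehydrogenase Ldha did not pass, with 914, 725 and 554 CPM in liver, against 1063, 788 and 862 CPM in code SI epithelium (adjusted p = 0.256), and was called lower with total-count scaling, at -1.01. The list counted 17 higher and 7 lower of 25, and the share lower was below the background of 35.6%.

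The brush border was the mirror of the plasma proteins, though less complete. Of 20 tested hydrolases 17 were lower in liver, 15 of them at least 4-fold (backgrounds of 35.6 and 15.7%), and of 14 genes of the microvillus 13 were lower. Sucrase-isomaltase (Sis) had 0 counts in liver, against 492, 814 and 932 CPM in code SI epithelium, and the metalloprotease Mep1b and aminopeptidase Xpnpep2 were at 0 in liver too. Intestinal alkaline phosphatase (Alpi) had 0, 0.0598 and 0 CPM in liver, against 217, 152 and 189 CPM in code SI epithelium, and the tissue-nonspecific form Alpl the reverse, 33, 30.1 and 52.4 CPM and 0.0745, 0 and 0 CPM. The group without a call or with small differences was one of ectoenzymes that also occupy the hepatocyte surface. Dpp4, a dipeptidyl peptidase, averaged 173 ± 36.1 CPM in liver and 294 ± 30 CPM in code SI epithelium, a log2 fold change of -0.76 ± 0.19, Mme (neprilysin) 44.5 ± 26.6 CPM and 48.9 ± 10.5 CPM with no call, and Enpp3 was higher in liver (1.08 ± 0.37). The Enpp3 call ended with total-count scaling (0.36) and without any 1 library other than liver BM replicate 3, at 0.55 without liver BM replicate 1 to 1.14 without code SI BM replicate 1. Among microvillus genes villin (Vil1) averaged 0.15 ± 0.167 CPM in liver and 1655 ± 119 CPM in the epithelium. Anks4b, a component of the complex that links microvillus tips, was the 1 gene of that list that was higher in liver (0.55 ± 0.18, adjusted p = 0.0241), and this call too ended with total-count scaling, at -0.13, and without code SI BM replicate 1 (0.46) or 3 (0.54) or liver BM replicate 3 (0.34).

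Of 24 nutrient transporters 10 were higher in liver, a share near the background of 35%, and 14 were lower, against 35.6% of all genes. The list holds 7 apical amino acid carriers, of which 6 were lower, and 11 basolateral or liver ones, of which 7 were higher. The split therefore depends on the make-up of the list. The apical absorbers, Slc15a1 for peptides and Slc7a9 and Slc6a20a for amino acids, had 0 counts in liver and means of 187, 262 and 86.2 CPM in code SI epithelium, and Slc6a19, for neutral amino acids, averaged 0.0382 ± 0.0332 CPM in liver and 443 ± 50.7 CPM in the epithelium. Slc5a1, the sodium-glucose carrier, averaged 1.59 ± 0.53 CPM in liver and 823 ± 71.5 CPM in code SI epithelium. Liver was higher for Slc38a3, Slc38a4 and Slc7a2, carriers of glutamine, small neutral and cationic amino acids, at means of 2295, 1259 and 797 CPM in liver and 3.11, 0.0248 and 0.322 CPM in the epithelium. Slc2a2 (GLUT2) had 659.8, 722 and 457 CPM in liver, against 3.39, 2.79 and 12.2 CPM in code SI epithelium, and the fructose carrier Slc2a5 was lower in liver (-1.81 ± 0.36).

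**Figure D3:**
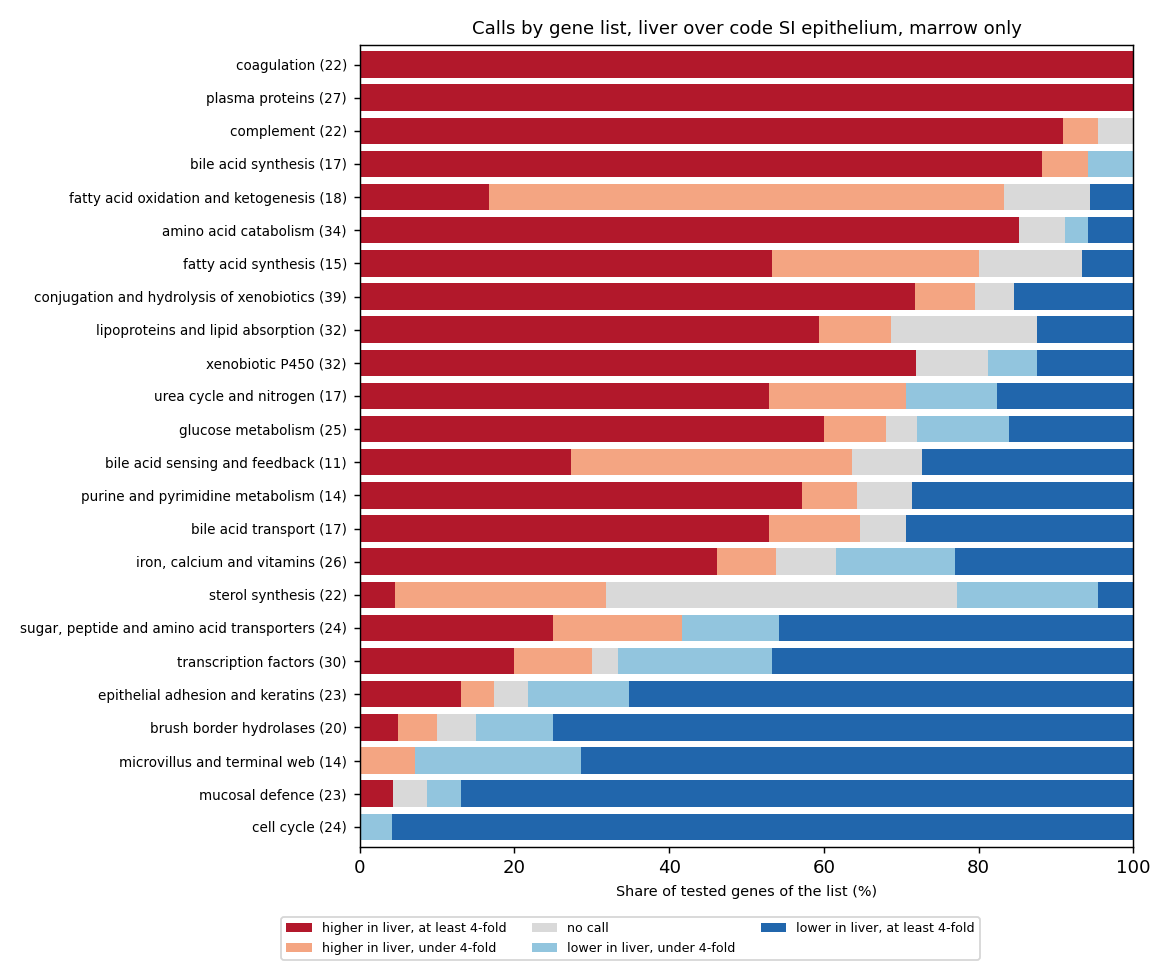
Share of the tested genes of each of 24 lists that were higher in liver, not called, or lower in liver, at an adjusted p below 0.05, with darker colour for differences of at least 4-fold; the number of tested genes stands in parentheses. Coagulation and plasma protein lists are wholly higher in liver, the cell cycle list is wholly lower, and the sterol synthesis list has the widest band without a call.

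Lipid genes were mostly higher in liver, with a small epithelial set. Of 32 tested genes of lipoproteins and lipid absorption 22 were higher in liver and 4 lower (Dgat1, Mogat2, Npc1l1 and Fabp2). The share lower was below the background of 35.6%. With total-count scaling 21 were higher and 9 lower. Apoa2 and Apoa5 averaged 8819.5 ± 523 CPM and 1219 ± 318 CPM in liver and 0.0248 ± 0.043 CPM and 0.0504 ± 0.0567 CPM in code SI epithelium, whereas Apoa1 and Apob, the structural proteins of high-density lipoprotein and of chylomicrons and very-low-density lipoprotein, kept 2629.7 ± 671 CPM and 348 ± 64.8 CPM in the epithelium, against 6972 ± 211 CPM and 7307 ± 2036 CPM in liver. Apoa4, often used as an enterocyte marker, had 88, 149.7 and 111 CPM in liver, against 92.8, 28.6 and 95.1 CPM in code SI epithelium, and did not pass (adjusted p = 0.163). Mttp, which loads lipid onto Apob in both cell types, had 441, 391 and 338 CPM in liver, against 359, 359.5 and 428 CPM in code SI epithelium (log2 fold change 0.03 ± 0.17, adjusted p = 0.883); with total-count scaling it was called lower in liver, with a log2 fold change of -0.67. Enzymes of triglyceride assembly went both ways: Mogat2 of the monoacylglycerol route averaged 0.235 ± 0.161 CPM in liver and 157 ± 13.9 CPM in the epithelium, and Dgat2 and Dgat1 had log2 fold changes of 3.51 ± 0.25 and -3.03 ± 0.16. Npc1l1, the cholesterol uptake protein, had 0.301, 0.179 and 0 CPM in liver, against 252, 225 and 331 CPM in code SI epithelium.

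The fatty acid binding proteins gave 3 patterns. Fabp1, the liver form, which jejunal enterocytes also make in quantity, had 5165, 2520.1 and 1959 CPM in liver, against 15.8, 9.66 and 12 CPM in code SI epithelium (log2 fold change 8.01 ± 0.50, adjusted p = 1.46e-06). Fabp2, the intestinal form, had 48.3, 65.3 and 65.6 CPM in liver, against 2116, 928 and 1587 CPM in code SI epithelium (log2 fold change -4.69 ± 0.35), so that it was detected in each liver library. Fabp6, as given above, was at 0 in liver.

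Most genes of fatty acid synthesis and oxidation were higher in liver, by moderate amounts for oxidation. Of 15 genes of synthesis 12 were higher, 8 of them at least 4-fold, 1 was lower and 2 were not called. Of 18 genes of oxidation and ketogenesis 15 were higher, 1 was lower and 2 were not called. The backgrounds over all genes were 35% higher and 35.6% lower. In the oxidation list 3 genes were at least 4-fold higher, a share near the background of 16.9%. The stearoyl-CoA desaturases changed places: Scd1 had 3615, 2531 and 2296 CPM in liver, against 11.9, 8.48 and 6.71 CPM in code SI epithelium, and Scd2 9.82, 9.5 and 14.3 CPM, against 258, 411 and 537 CPM (log2 fold changes 8.28 ± 0.37 and -5.16 ± 0.33). Oxct1, which burns ketone bodies, averaged 4.94 ± 0.334 CPM in liver and 169 ± 10.9 CPM in the epithelium (log2 fold change -5.10 ± 0.16).

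Sterol synthesis was the least divided list, with no call for 10 of 22 genes, 7 higher and 5 lower, and a median log2 fold change of -0.25. The shares higher and lower were below the backgrounds of 35 and 35.6%. Hmgcs1 had 208, 210.4 and 84.7 CPM in liver, against 219, 251 and 209.5 CPM in code SI epithelium (adjusted p = 0.243), and the third liver library was the low one. With total-count scaling it was called lower, at -1.16. Sqle and Mvd, of the squalene and mevalonate steps, and Srebf2, the factor that controls the pathway, were lower in liver (-2.51 ± 0.46, -1.67 ± 0.31 and -1.56 ± 0.14), and the late enzyme Sc5d was higher (2.02 ± 0.20). With total-count scaling the list gave 4 higher and 15 lower.

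Most drug-metabolising P450 genes were higher in liver, and a small number were lower. Of 32 cytochrome P450 and reductase genes 23 were higher in liver, each at least 4-fold, and 6 were lower. Over all genes 16.9% were at least 4-fold higher and 35.6% were lower. Cyp2a5, Cyp2a12, Cyp2c29 and Cyp2c37 had means of 1084 to 3450.3 CPM in liver and 0 counts in code SI epithelium. The epithelial set held Cyp2c65, with 0.0603, 0 and 0 CPM in liver, against 43.8, 44.8 and 23.6 CPM in code SI epithelium, together with Cyp2c55, Cyp2c66 and Cyp2s1, each at least 4-fold lower in liver. Cyp4b1 and Cyp4f14 were lower in liver by less than 2-fold (-0.97 ± 0.24 and -0.93 ± 0.24) and were expressed in both tissues. The main mouse Cyp3a gene, Cyp3a11, averaged 4610.5 ± 2299 CPM in liver and 17.4 ± 13.5 CPM in the epithelium, and Cyp3a13 was shared, at 70.8, 90.6 and 39.9 CPM in liver, against 54.3, 44.8 and 52 CPM in code SI epithelium, with no call (adjusted p = 0.193), though it was called higher without liver BM replicate 3 (0.65). The Cyp2c, Cyp2d and Cyp3a genes, like the Ces1 and Ugt1a genes below, lie in clusters of close copies, so single-gene counts within them are uncertain.

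Of 39 genes of conjugation, ester hydrolysis and efflux, 31 were higher in liver and 6 lower, against 35 and 35.6% of all genes. All 8 glutathione transferases were at least 4-fold higher in liver, against 16.9% of all genes. Carboxylesterases were mixed, with Ces1d at 1144 ± 426 CPM in liver and 2.09 ± 1.76 CPM in the epithelium, Ces2e shared at 565, 466 and 534 CPM in liver, against 677, 571 and 540.2 CPM in code SI epithelium (adjusted p = 0.341) but called lower with total-count scaling (-0.88), and Ces2c lower in liver (-4.03 ± 0.24). The glucuronosyltransferase Ugt1a7c and sulfotransferase Sult2b1 were lower in liver, at 1.02 ± 0.222 CPM and 0.04 ± 0.0347 CPM, against 69.1 ± 1.85 CPM and 107 ± 7.95 CPM in code SI epithelium. The apical efflux pumps Abcb1a and Abcg2, which return drugs to the gut lumen, were also lower in liver (-3.48 ± 0.23 and -2.51 ± 0.21).

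Purine, iron and vitamin genes were found on both sides. Urate oxidase (Uox) averaged 2071 ± 839 CPM in liver and 0.476 ± 0.297 CPM in code SI epithelium, and adenosine deaminase (Ada) and uridine phosphorylase (Upp1) were lower in liver (-5.01 ± 0.61 and -5.01 ± 0.71). The iron hormone hepcidin (Hamp) had 375, 1354 and 1399.8 CPM in liver, against 0.261, 0.0349 and 0.0395 CPM in code SI epithelium, and its regulators Hfe2 and Tfr2 averaged 46.4 ± 13.9 CPM and 371 ± 76.3 CPM in liver, with 0 counts and 0.152 ± 0.109 CPM in the epithelium. Heph, the ferroxidase of enterocyte iron export, had 1.69, 1.02 and 0.494 CPM in liver, against 111, 128 and 126 CPM in code SI epithelium, while the iron exporter itself, Slc40a1, was higher in liver (3.01 ± 0.28), where Kupffer cells also make it; the Kupffer markers moved with it and their part was not tested. The receptor of vitamin B12 with its intrinsic factor in the ileum is built from Cubn and Amn. Cubn averaged 0.198 ± 0.127 CPM in liver and 249 ± 67.2 CPM in code SI epithelium, and Amn 0.0565 ± 0.055 CPM and 39.6 ± 5.67 CPM. The retinol carriers were exchanged, the secreted Rbp4 at 3656 ± 811 CPM in liver and 2.01 ± 0.235 CPM in the epithelium, and the enterocyte Rbp2 at 0.0581 ± 0.0598 CPM and 136 ± 42 CPM. The purine and pyrimidine list counted 9 higher and 4 lower of 14, and the list of iron, calcium and vitamins 14 and 10 of 26; the shares lower were near or below the background of 35.6%.

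Of 30 transcription factors 20 were lower in liver and 9 higher, against 35.6 and 35% of all genes. The list holds 15 factors chosen as intestinal, of which 14 were lower, and 6 chosen as hepatocyte factors, of which 5 were higher. Of 9 shared factors 5 were lower and 3 higher. The majority therefore follows the make-up of the list. The intestinal factors Cdx1, Cdx2 and Spdef had 0 counts in liver. Cdx2 had 222, 167 and 163 CPM in code SI epithelium, and Isx, a homeobox factor of the small bowel, averaged 0.0183 ± 0.0317 CPM in liver and 192 ± 20.7 CPM in the epithelium. Hepatocyte factors were detected in both tissues: Cebpa and Prox1 averaged 349.7 ± 59.7 CPM and 116 ± 24.3 CPM in liver and 60.6 ± 4.63 CPM and 5.9 ± 0.458 CPM in code SI epithelium, and Onecut2 88 ± 25.3 CPM and 0.446 ± 0.0963 CPM. Hnf4a, which controls genes of both tissues, had 789.5, 862 and 779 CPM in liver, against 925, 1158 and 1242 CPM in code SI epithelium. The groups did not overlap, but the difference did not pass (log2 fold change -0.45 ± 0.18, adjusted p = 0.0532). Hnf4a was called lower in liver with total-count scaling (-1.15), with DESeq2 (-0.42), without code SI BM replicate 1 (-0.58) and without liver BM replicate 3 (-0.46). Its paralog Hnf4g averaged 0.231 ± 0.0967 CPM in liver and 89.3 ± 24 CPM in the epithelium.

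Hnf4a was expressed in both tissues, and promoters of both gene sets were searched for its motif, CAAAGTCCA, on both strands, in RefSeq windows of 300 bases (250 before and 50 after the annotated start, build GRCm38.p6). The motif was chosen after the contrast was known. The sets were limited to genes with a mean of at least 5 CPM, in the higher tissue for genes at least 4-fold apart (1708 higher and 1633 lower in liver) and in both tissues for genes less than 2-fold apart. Of windows of the genes at least 4-fold higher in liver, 20 of 1653 held a match (1.21%), and of windows of those at least 4-fold lower, 19 of 1577 (1.2%). Among genes less than 2-fold apart, 15 of 5485 windows held one (0.273%). Among windows of all genes tested the count was 83 of 13837 (0.6%), and among all promoter windows 156 of 32851 (0.475%). The motif TTTATNG of the caudal factors Cdx1 and Cdx2 was found in 8.83%, 8.88%, 6.33%, 7.29% and 10.9% of the same sets, in that order. The general promoter motif TATAAA was found in 13.3%, 10%, 5.87%, 8.2% and 13.6% of them. It too was more frequent in both 4-fold sets than in genes less than 2-fold apart. These shares are descriptions of letters, and a match is not a bound site. Windows are shown for 5 genes described above, because they carry the motif of Hnf4a in genes of either tissue, with the match in capitals and each read along the gene's own strand. Those higher in liver are the bile acid enzymes Cyp8b1 (chr9:121916256-121916555, minus strand, match beginning 67 bases before the start) and Cyp2c70 (chr19:40187237-40187536, minus strand, 64 bases before) and the drug-metabolising Cyp3a11 (chr5:145879805-145880104, minus strand, 109 bases before). Those lower in liver are intestinal alkaline phosphatase, Alpi (chr1:87101557-87101856, minus strand, 19 bases before), and the P450 Cyp2c65 (chr19:39060756-39061055, plus strand, 116 bases before).
Cyp8b1: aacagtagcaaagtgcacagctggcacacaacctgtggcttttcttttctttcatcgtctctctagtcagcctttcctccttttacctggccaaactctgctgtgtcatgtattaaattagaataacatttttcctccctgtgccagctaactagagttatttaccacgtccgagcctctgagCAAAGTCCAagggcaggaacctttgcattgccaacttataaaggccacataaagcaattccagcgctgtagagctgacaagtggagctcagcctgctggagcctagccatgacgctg
Cyp2c70: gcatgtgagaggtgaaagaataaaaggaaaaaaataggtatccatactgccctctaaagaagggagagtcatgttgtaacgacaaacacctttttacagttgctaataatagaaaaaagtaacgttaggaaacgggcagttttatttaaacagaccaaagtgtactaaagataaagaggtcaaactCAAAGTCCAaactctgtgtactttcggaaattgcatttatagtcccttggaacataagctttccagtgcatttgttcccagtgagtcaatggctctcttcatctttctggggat
Cyp3a11: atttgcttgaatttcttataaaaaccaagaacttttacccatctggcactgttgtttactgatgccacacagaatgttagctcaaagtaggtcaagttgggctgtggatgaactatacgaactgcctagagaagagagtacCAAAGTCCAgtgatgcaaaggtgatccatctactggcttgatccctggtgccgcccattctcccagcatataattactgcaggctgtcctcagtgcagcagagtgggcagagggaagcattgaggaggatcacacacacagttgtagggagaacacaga
Alpi: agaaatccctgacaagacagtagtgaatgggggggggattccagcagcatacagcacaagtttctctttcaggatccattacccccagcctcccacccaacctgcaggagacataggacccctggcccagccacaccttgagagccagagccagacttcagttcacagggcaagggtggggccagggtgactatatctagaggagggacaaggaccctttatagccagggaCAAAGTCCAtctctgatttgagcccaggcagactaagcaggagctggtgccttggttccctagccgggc
Cyp2c65: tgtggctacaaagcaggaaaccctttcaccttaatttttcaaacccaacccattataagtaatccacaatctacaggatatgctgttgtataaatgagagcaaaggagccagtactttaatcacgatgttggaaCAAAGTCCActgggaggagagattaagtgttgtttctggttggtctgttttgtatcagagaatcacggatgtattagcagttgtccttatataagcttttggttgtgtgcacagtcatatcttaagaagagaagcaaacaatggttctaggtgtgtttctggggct

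Barrier, defence and renewal genes were mostly epithelial. The backgrounds over all genes were 35.6% lower in liver and 15.7% lower at least 4-fold. Of 23 defence genes 21 were lower in liver, 20 of them at least 4-fold, 1 was not called (Cxcl16, a chemokine), and 1 was higher, the mucin Muc1, which averaged 1.63 ± 0.638 CPM in liver and 0.0984 ± 0.054 CPM in code SI epithelium. The immunoglobulin receptor Pigr, which carries IgA into bile as well as into the gut lumen in mice, averaged 1434 ± 448 CPM in liver and 2283 ± 209 CPM in the epithelium (log2 fold change -0.67 ± 0.25), a call that ended without any 1 library other than liver BM replicate 2 or 3, at -0.61 without code SI BM replicate 2 to -0.74 without code SI BM replicate 3. Lysozyme genes were exchanged, with Lyz1 of Paneth cells at 0, 0 and 0.274 CPM in liver, against 5896, 5136 and 3752 CPM in code SI epithelium, and Lyz2 of macrophages at 51, 36.9 and 49.2 CPM, against 3.17, 1.43 and 2.84 CPM; the summed Kupffer markers, given above, moved with Lyz2, and their part in it was not tested. Cadherins differed by type, N-cadherin (Cdh2) averaging 73 ± 22.2 CPM in liver and 0.0248 ± 0.043 CPM in the epithelium, Cdh17 0.0598 ± 0.104 CPM and 799 ± 43.2 CPM, and Cdh1, E-cadherin, 44.8 ± 8.63 CPM and 806 ± 18.8 CPM. Krt18, a keratin of both hepatocytes and enterocytes, was not called (log2 fold change -0.69 ± 0.32, adjusted p = 0.0812), and its partner Krt8 was lower in liver (-3.93 ± 0.26). Krt18 was called lower with total-count scaling (-1.35) and without liver BM replicate 3 (-1.20). All 24 cell cycle genes were lower in liver, 23 of them at least 4-fold, with Mki67 at 3.59 ± 0.626 CPM in liver and 97.8 ± 19.1 CPM in the epithelium and Plk1 at 0.31 ± 0.182 CPM and 50.6 ± 5.2 CPM. The erythroid markers summed to 264 to 360.2 TPM in liver and 13.6 to 82 TPM in code SI epithelium, and their part in the cell cycle values was not tested.

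Among related genes placed in 1 list, 18 of 25 groups of paralogs or isoenzymes held one gene that was higher in liver and another that was lower. Over all genes 35% were higher and 35.6% lower, but these are shares of single genes and not a background for groups. The groups were chosen with earlier results of these data known, so the count is not a rate for paralogs in general. Besides those above, Car3, the carbonic anhydrase of liver and muscle cytosol, averaged 474 ± 180.4 CPM in liver and 0.0263 ± 0.0456 CPM in code SI epithelium, and the membrane-bound Car4 had 0 counts in liver and 99.9 ± 8 CPM in the epithelium. The claudins Cldn14 and Cldn15 had log2 fold changes of 7.07 ± 0.49 and -8.14 ± 0.24, and Adh4 and Adh6a averaged 98.6 CPM and 0 CPM in liver and 0.899 CPM and 1.42 CPM in the epithelium. In 3 of the groups every gene was higher in liver, and in 4 the other gene was not called. The aquaporins Aqp9 and Aqp8 were both higher in liver, at 479 ± 129 CPM and 104 ± 25.3 CPM, against 0 CPM and 1.73 ± 2.28 CPM in code SI epithelium, as were the acetyl-CoA carboxylases Acaca and Acacb (1.83 ± 0.23 and 3.35 ± 0.32) and the glucuronosyltransferases Ugt2b1 and Ugt2b34, of which Ugt2b34 kept 272 ± 23.1 CPM in the epithelium. The carnitine carrier Slc22a5 was not called (adjusted p = 0.119), but it was called lower in liver with total-count scaling (-1.28), with the replicate block (-0.66) and without liver BM replicate 1 (-0.98).

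**Figure D4:**
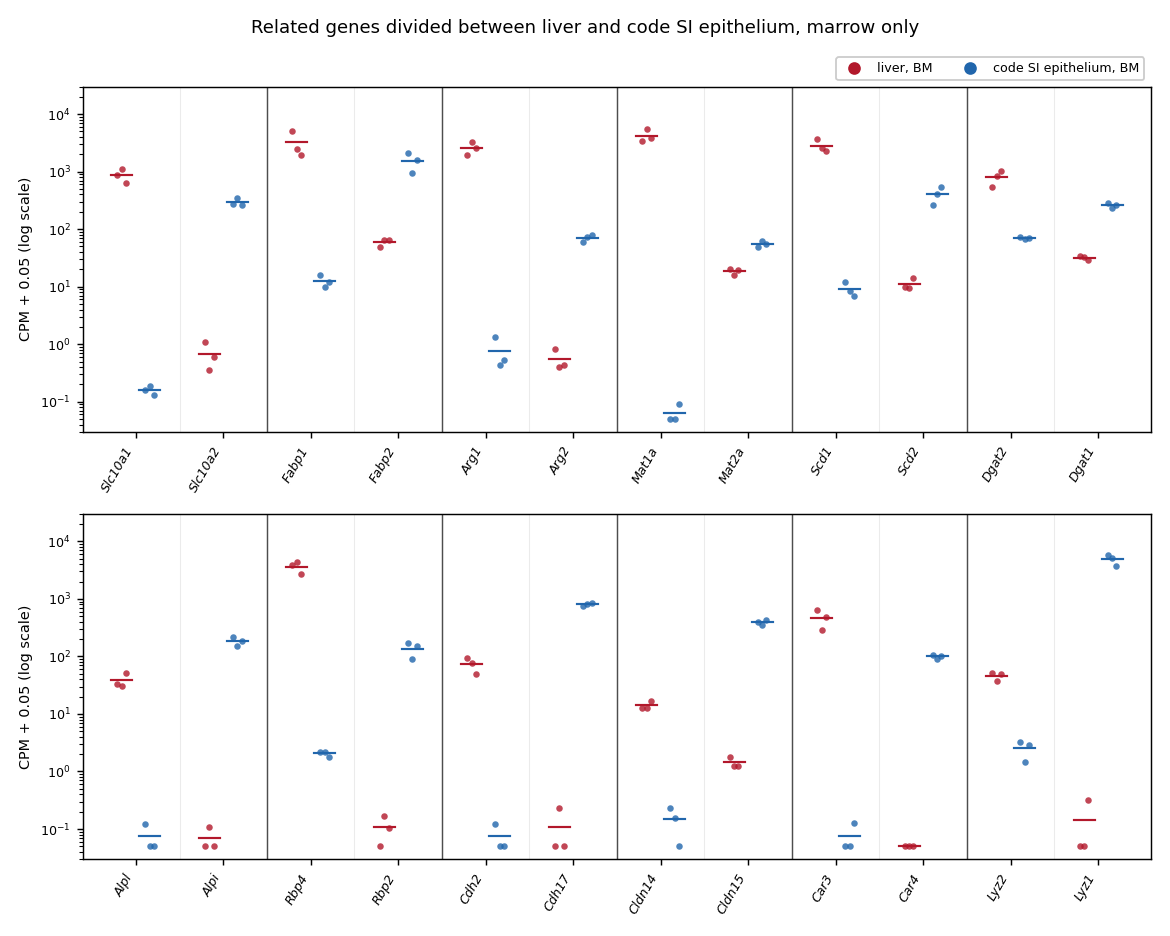
CPM + 0.05 on a log scale for 12 pairs of related genes in each BM library, with liver (red) left of code SI epithelium (blue), a bar at the mean of 3 libraries and dark lines between pairs. The pairs were picked from groups of related genes that divided between the tissues. In each pair the first gene is higher in liver and the second is higher in code SI epithelium, and the groups do not overlap in any of the 24 genes.

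The same contrast in the mice given T cells, in libraries that the choice above did not use, gave 5493 genes higher in liver (35.4%) and 5573 lower (35.9%) of 15519 tested. Of 4630 genes called at least 4-fold apart in BM and tested in both, 4446 (96%) were called with the same sign in BMT and 19 with the opposite sign. One library stood apart: code SI BMT replicate 3 held 2213 counts of Alb, against 6 and 27 in the other code SI BMT libraries and 0 to 2 in the code SI BM libraries, with 211 counts of Ahsg and 123 of Apoa2. The part of that library in the results below was not tested beyond leaving it out, and its removal is named where it ends a call. A test of the difference between the contrasts, BMT minus BM, called 2143 of 16518 genes (13%), 1360 higher (8.23%) and 783 lower (4.74%); with total-count scaling 983 were higher and 1243 lower, and leaving out code SI BM replicate 2 or liver BMT replicate 2 left 1312 and 1367.

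Of 45 bile acid genes tested for that difference, 5 were called, against 13% of all genes. Slc10a1 averaged 971 ± 122 CPM in liver and 0.178 ± 0.277 CPM in code SI epithelium in BMT, and Slc10a2 1.44 ± 0.44 CPM and 625 ± 227 CPM, so the paralogs held the same sides. Fabp6 and Fgf15 were at 0 counts in liver in BMT too, with 2102 ± 1091 CPM and 14.2 ± 13.1 CPM in code SI epithelium. Cyp39a1 averaged 234 ± 50 CPM in liver and 2 ± 0.507 CPM in the epithelium in BMT, a contrast larger than in BM by 2.99 ± 0.42 on the log2 scale (adjusted p = 0.000871). Vdr averaged 3.23 ± 0.556 CPM and 248 ± 58.1 CPM in BMT, which brought its contrast 4.08 ± 0.56 closer to 0 (adjusted p = 0.000705). The Fgf15 receptor genes Fgfr4 and Klb were both further apart in BMT, by 1.34 ± 0.29 and 2.11 ± 0.48 (adjusted p = 0.00921 and 0.0122). The call for Akr1c6 ended without code SI BMT replicate 3 (adjusted p = 0.15). Mttp, which was not called in BM, averaged 399 ± 21 CPM in liver and 841 ± 52 CPM in code SI epithelium in BMT and was lower in liver there, with a difference between the contrasts of -1.12 ± 0.25 (adjusted p = 0.0117).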

How the data were processed

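RNA was measured in 18 libraries, of which the 6 of liver and code SI epithelium from BM mice form the main contrast and the 6 of BMT mice its repeat. The deposited values are read counts per gene; the authors used FastQC 0.11.9, STAR 2.7.0e and featureCounts 1.6.3 with build GRCm38.p5, per the submitters' processing notes. Annotation release and strand setting were not given in the sources used here, so overlapping and antisense genes may share counts. Libraries were polyA-selected with a stranded kit, per the labels' protocols. Rows with no gene symbol held 0.00257% of counts and were kept by identifier.

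Genes were filtered with filterByExpr by group and fitted with edgeR 4.0.16 (R 4.3.3) by its quasi-likelihood test with TMM scaling, p-values adjusted by Benjamini-Hochberg over all genes tested and a threshold of 0.05. Each fold change is liver over code SI epithelium on a log2 scale, with an SE derived from the fold change and its F statistic. CPM were scaled within the 6 libraries of a treatment, and TPM used the deposited gene lengths. Where a tissue had 0 counts, folds are bounds against 3 counts over the group, which cover counting error only. On simulated data with 15321 genes, 200 were changed in random directions and the rest were equal in both tissues. The test recovered 2, 48, 98 and 100% of genes changed 1.5-, 2-, 4- and 8-fold, with 6 false calls. In the real contrast 70.6% of genes were called and the split depended on the scaling. The simulation does not cover that setting, so its rates are not the error of the real contrast.

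The comparison, the 25 gene lists and the genes named were chosen with earlier results of these data known. Genes were named by a rule: the 8 largest and 8 smallest fold changes among called genes with at least 100 CPM, no overlap and a named symbol; the members of the bile acid and related gene lists; up to 4 called genes each way in other lists with at least 5 CPM; and the 6 list genes nearest 0 with at least 100 CPM in both tissues. A few genes and 1 motif are not reported here. Of 209 genes named, 33 lie beyond the rule and were chosen after their values were seen. Alternatives were other scalings, no filter, DESeq2 1.42.0, limits to 1 lane, a fit of all 18 libraries, a replicate block and leaving out each library.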

Additional observations from a re-analysis of the deposited data

Results flagged for a closer look

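The contrast of liver with code SI epithelium was tested for a difference between BMT and BM mice, and among 205 named genes tested 34 differed, 19 with a higher and 15 with a lower log2 fold change in BMT, beside 13% of all genes, by the quasi-likelihood F-test of edgeR, adjusted by Benjamini-Hochberg. Values below are BMT minus BM differences of the log2 fold change, liver over code SI. Among bile acid genes the differences were those of Cyp39a1 (2.99), Vdr (4.08), Fgfr4 (1.34), Klb (2.11) and Akr1c6 (-6.76). Among nitrogen and glucose genes they were those of Aldh18a1 (2.01), Oat (1.72), Fbp1 (1.89), Pklr (-1.84), Pygb (0.88) and Pygl (-3.33). Lipid and sterol genes gave Mttp (-1.12), Fabp1 (-2.21), Mvd (1.44), Sqle (2.30) and Srebf2 (0.74). Drug, alcohol and nucleoside metabolism gave Cyp2c29 (-8.84), Cyp4f14 (-1.56), Ces2c (-3.29), Adh4 (1.77) and Upp1 (-3.25). Plasma protein and complement genes gave Alb (-9.38), Cd55 (-1.36) and Cfb (1.72). The epithelial surface, defence and carbonic anhydrase genes gave Anks4b (-1.05), Dpp4 (-1.27), Mme (-3.40), Lyz1 (4.31), Car3 (-6.68) and Car4 (6.95). The iron exporter, a hepatocyte factor and genes of cell division gave Slc40a1 (4.15), Prox1 (1.05), Mki67 (2.04) and Plk1 (2.09). Without code SI BMT replicate 3, the library with 2213 counts of Alb, 6 of the 34 were no longer called (Adh4, Akr1c6, Anks4b, Car3, Cyp2c29 and Dpp4), and the difference of Alb was -3.82 in place of -9.38. Differences of genes with 0 counts in a tissue depend on the prior count and are not bounds. No explanation for these differences was tested.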

How the results depend on the processing

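Scaling moved the split of higher and lower calls most. With total counts alone the BM contrast gave 3395 higher and 8348 lower, in place of 5358 and 5461, and the BMT contrast 3407 and 9279, in place of 5493 and 5573; at 4-fold or more the BM split was 2100 and 3293, in place of 2583 and 2406. Leaving out 1 library at a time gave 9932 to 11350 BM calls, 5214 to 5375 at 4-fold or more, 10198 to 11317 BMT calls and 1312 to 2289 calls for the BMT minus BM difference, in place of 2143; the lowest 2 were 1312 without code SI BM replicate 2 and 1367 without liver BMT replicate 2. DESeq2 gave 2894 for that difference, and the BM calls were 12192 with no low-count filter and 12028 in a fit of all 18 libraries, in place of 10819. Single genes that changed direction with total counts were Abcg5 (-0.22), Anks4b (-0.13), Cxcl16 (-0.41), Cyp3a13 (-0.30), Ddc (-0.56), Mttp (-0.67), Nr5a2 (-0.19) and Pklr (-0.16). Mttp was also -0.01 with no low-count filter, and with 1 library left out it ranged between -0.11 without liver BM replicate 1 and 0.11 without code SI BM replicate 3. Over the same sets Ddc ranged between -0.24 without liver BM replicate 1 and 0.31 without liver BM replicate 3, and Mme between -0.62 without liver BM replicate 1 and 0.24 without liver BM replicate 3. Cxcl16 ranged between -0.25 without liver BM replicate 3 and 0.42 without code SI BM replicate 1. Leaving out liver BM replicate 3 is also the limit to lane L002. The cause was not tested. Of 205 named genes tested, 184 kept direction and side of the threshold in every alternative run. Library numbers recur between tissues. Deviations of same-numbered BM libraries correlated at 0.0223, 0.0686 and 0.1, and those of differently numbered ones at -0.133 to 0.0988. With 3 libraries per group these values cannot show whether same-numbered libraries share a mouse. The main fit did not take the numbers as pairs. With a replicate block the calls were 10447 in BM, 4997 at 4-fold or more, 10989 in BMT and 1758 for the difference. At this depth 3 counts are about 0.14 CPM on library totals, before TMM scaling, and 1.5-fold differences were mostly missed in simulation.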
